A study of Mus musculus with 2 samples.

Results

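The colony-stimulating factors are secreted proteins that control how many myeloid cells are made, how long they live and how they are activated. CSF1 acts through the receptor CSF1R and keeps macrophages alive, CSF3 acts through CSF3R and drives the production, release and activation of neutrophils, and CSF2 acts on both lineages through a ligand-specific alpha chain, Csf2ra, paired with a signalling beta chain. Mice carry a second beta chain gene, Csf2rb2, whose product serves mouse IL-3, beside Csf2rb, which serves CSF2, IL-3 and IL-5. The genes described here are the 3 ligands Csf1, Csf2 and Csf3 and the 5 receptor chains Csf1r, Csf3r, Csf2ra, Csf2rb and Csf2rb2. They were taken by gene symbol, 8 of 31053 genes in the deposited feature tables, and all 8 were found.

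The cells came from the vitreous fluid and a saline rinse of the retina of C57BL/6 mice whose eyes had been injected with zymosan, a yeast cell wall preparation that causes sterile inflammation. Of the libraries, 1 was made from mice treated with antiserum to the chemokine receptor CXCR2 (aCXCR2) and 1 from mice treated with the serum labelled NRS, and all mice in both had received zymosan. Cells were enriched with magnetic beads against the neutrophil surface protein Ly6G and sequenced with a droplet kit that counts 3' transcript ends by unique molecular identifiers (UMIs). The number of animals behind each library, their age and the time after injection are not stated in the labels.

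The aCXCR2 library held 5551 barcodes and 85748842 UMIs, and the NRS library held 7314 barcodes and 61386486 UMIs. After the cell filter 4826 aCXCR2 cells with a median of 10383.5 UMIs and 5655 NRS cells with a median of 4759 UMIs remained, and 53 barcode sequences occurred in both. The label of Ly6G-positive cells held for part of the cells only. Clusters with neutrophil markers (S100a8, S100a9, Cxcr2, Ly6g and others) held 53.1% of aCXCR2 and 45.7% of NRS cells, here called neutrophil-like. Mononuclear phagocyte-like cells, with macrophage and monocyte markers such as C1qa, Mrc1 and Ccr2, were 29.9% of aCXCR2 and 7.75% of NRS cells. Photoreceptor-like cells, with rod and cone genes, were 4.43% and 11.6%, and 12.4% and 34.7% of cells fell in clusters left unnamed. Of 21 clusters, 8 were neutrophil-like, 3 mononuclear phagocyte-like, 3 photoreceptor-like and 7 unnamed, and they are called by number. None of the 8 genes was among the markers or the genes that built the clusters.

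With 1 library in each group no difference between aCXCR2 and NRS has a replicate check, and no test was made. Intervals below are exact 95% intervals for counting error only. Levels are UMIs summed over the cells of a class and scaled to the total UMIs of those cells (CPM), and fewer cells expressing a gene cannot be told apart from less RNA per cell in such sums. Low levels are read against photoreceptor-like cells, a non-myeloid class from the same droplets, as a background. That level can also hold transcripts of the photoreceptors themselves, and the parts were not separated. Median depths were 7635 UMIs (aCXCR2) and 4303 UMIs (NRS) in neutrophil-like cells, 30861.5 and 23331 UMIs in mononuclear phagocyte-like cells, and 5844.5 and 5925.5 UMIs in photoreceptor-like cells.

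Csf1 and its receptor gene were highest in different classes. Csf1 had 135 CPM in aCXCR2 neutrophil-like cells, against 4.28 CPM in aCXCR2 mononuclear phagocyte-like cells. In the NRS library it had 271 CPM in neutrophil-like cells, against 5.62 CPM in mononuclear phagocyte-like cells. Its receptor gene ran the other way. Csf1r had 264 CPM in aCXCR2 neutrophil-like and 1025 CPM in aCXCR2 mononuclear phagocyte-like cells, and 228 CPM and 673 CPM in the same classes of the NRS library. It was therefore 3.88-fold and 2.96-fold higher in the phagocytes of the aCXCR2 and NRS libraries.

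For the CSF3 pair, ligand and receptor were both higher in neutrophil-like cells. Csf3 had 84.0 CPM in neutrophil-like and 9.33 CPM in mononuclear phagocyte-like cells of the aCXCR2 library, and 90.0 CPM and 1.76 CPM in those of the NRS library. Csf3r had 1368 CPM in neutrophil-like and 182 CPM in mononuclear phagocyte-like cells of the aCXCR2 library, and 943 CPM and 95.3 CPM in those of the NRS library. In both libraries 3 members (Csf1, Csf3 and Csf3r) were at least 2-fold higher in neutrophil-like cells, where 10.3% of 7462 genes were, and 1 member (Csf1r) was at least 2-fold lower, where 15.2% of genes were. These counts stayed at 3 and 1 in each of the 12 alternative settings that recomputed them. Leaving out 1 cluster at a time was not among these settings. Single clusters weighed on 2 of the folds. Without neutrophil-like cluster 11 the aCXCR2 log2 ratio of Csf3 was 1.64 in place of 3.17. Without mononuclear phagocyte-like cluster 2 the NRS log2 ratio of Csf1r was -0.89 in place of -1.56, and without cluster 14 it was -2.27. The value of -0.89 is under the 2-fold cut, so Csf1r would not be counted as lower without cluster 2.

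**Figure D1:**
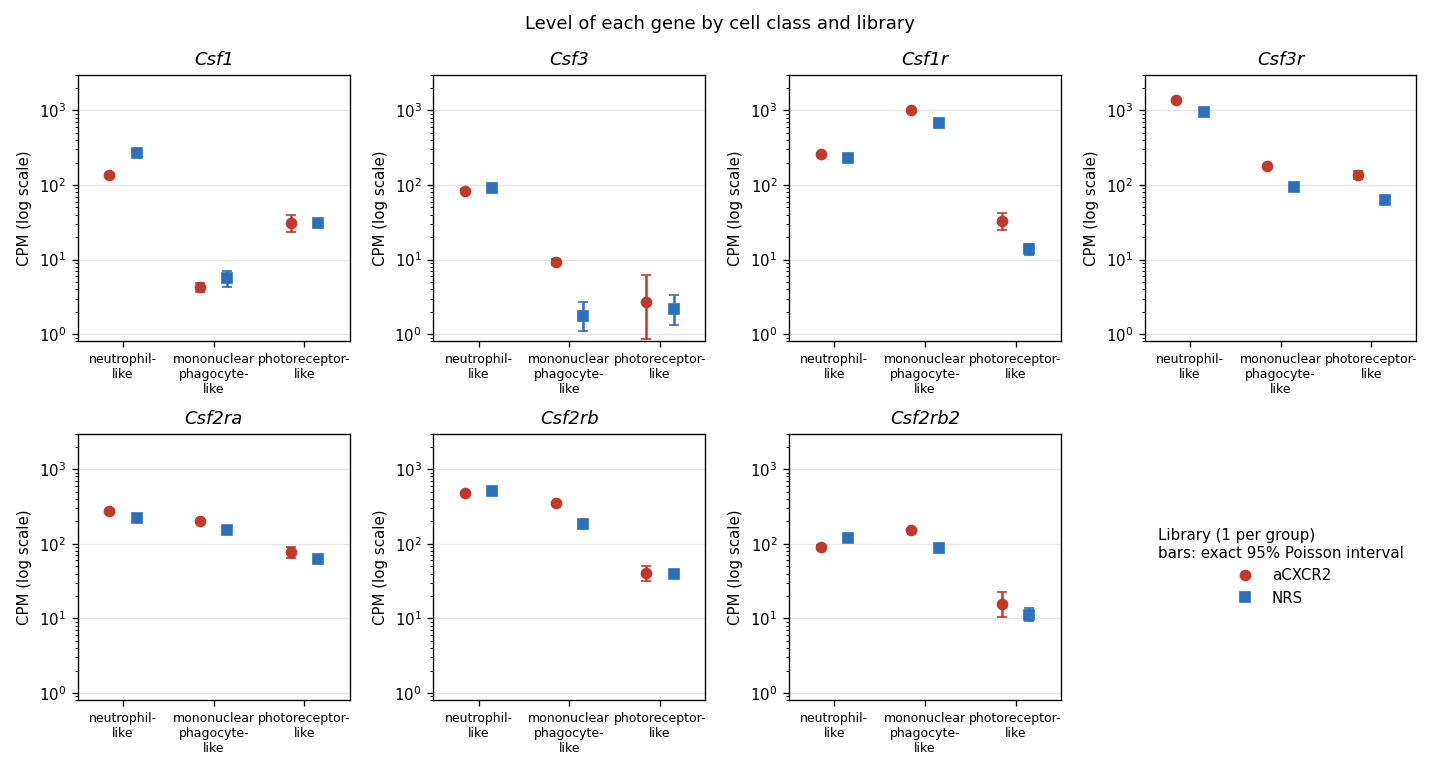
Level of 7 members in CPM on a log axis, by cell class, with aCXCR2 as circles and NRS as squares and exact 95% Poisson intervals as bars. Csf1 and Csf3 were highest in neutrophil-like cells and Csf1r in mononuclear phagocyte-like cells in both libraries. Csf2 is left out because it had too few UMIs.

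Most UMIs of each ligand came from neutrophil-like cells. These cells held 85.8% of all Csf1 UMIs in the aCXCR2 library and 64.6% in the NRS library, although they held 27.6% and 24.9% of all UMIs. They held 67.1% and 52.3% of Csf3 UMIs. For Csf1r, mononuclear phagocyte-like cells held 76.9% of UMIs in the aCXCR2 and 55.1% in the NRS library. Unnamed clusters held 7.10% of Csf1 and 17.6% of Csf3 UMIs in the aCXCR2 library, and 28.2% and 45.7% in the NRS library.

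Photoreceptor-like cells had 30.5 CPM of Csf1 in the aCXCR2 and 31.3 CPM in the NRS library, more than mononuclear phagocyte-like cells had. The Csf1 level of the phagocytes was therefore under that of a non-myeloid class and is not read as expression. Csf3 had 2.68 CPM in aCXCR2 and 2.17 CPM in NRS photoreceptor-like cells, so the 1.76 CPM of NRS phagocytes was not above background, while the 9.33 CPM of aCXCR2 phagocytes was. Csf1r had 32.7 CPM and 13.7 CPM in photoreceptor-like cells, far under its level in neutrophil-like cells. Csf3r had 135 CPM and 63.5 CPM there, close to its level in the phagocytes.

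Shares of cells with a UMI were also compared. Each cell was thinned to 1000 UMIs, so that depth did not set the share, and shallower cells were left out (46 aCXCR2 and 174 NRS neutrophil-like cells, 6 and 13 phagocytes, and 7 and 20 photoreceptor-like cells). Csf1r was seen in 21.6% of aCXCR2 and 17.8% of NRS neutrophil-like cells and in 2.42% and 1.25% of photoreceptor-like ones, and in 60.8% of aCXCR2 and 44.0% of NRS phagocytes. Without thinning, the neutrophil-like shares were 70.7% and 48.8%, and the photoreceptor-like shares 19.6% and 10.9%. Csf3r was seen in 66.9% of aCXCR2 and 48.2% of NRS neutrophil-like cells, 15.8% and 8.94% of phagocytes, and 3.86% and 5.02% of photoreceptor-like cells. Without thinning these were 93.3% and 74.3%, 92.5% and 64.6%, and 14% and 21.0%. The thinned shares of phagocytes and photoreceptor-like cells had intervals that did not overlap in the aCXCR2 library (14 to 17.8% and 1.68 to 7.47%) and did overlap in the NRS library (6.41 to 12.1% and 3.46 to 7.01%). The CPM intervals did not overlap in either library. The 12 neutrophil markers summed to 2.12% (aCXCR2) and 2.25% (NRS) of their neutrophil-like level in the phagocytes, while Csf3r was at 13.3% and 10.1% of its own.

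Csf1 was the ligand found in the most neutrophil-like cells. It lies on chromosome 3 at 107741048 to 107760469 (minus strand, GRCm38, GENCODE), and no other annotated gene overlaps it. It was seen in 10.6% of aCXCR2 and 17.8% of NRS neutrophil-like cells after thinning, and in 1.45% and 1.25% of photoreceptor-like ones. Without thinning the neutrophil-like share was 37.0% in each library. Csf1 was the only member at least 2-fold apart between the libraries in neutrophil-like cells, at 135 CPM in aCXCR2 and 271 CPM in NRS cells (log2 ratio -1.0, interval -1.08 to -0.93). That count of 1 of 7 measured members lay beside a background in which 19.0% of 7160 genes were at least 2-fold lower in aCXCR2 and 1.89% at least 2-fold higher, with a median log2 ratio of -0.56 over all genes. With TMM factors, which centre the typical gene, 3.27% of genes were lower and 7.16% higher, and Csf1 had a log2 ratio of -0.34. TMM factors moved every ratio in this class by 0.66. The 12 neutrophil markers summed to 183734 CPM in aCXCR2 and 59249 CPM in NRS neutrophil-like cells, and the 10 photoreceptor markers to 79.4 and 752 CPM. The part of these differences in the ratios was not tested.

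The composition of the class differed between libraries, so Csf1 was also compared inside single clusters. Clusters 4, 5, 11 and 13 held most aCXCR2 neutrophil-like cells, and clusters 1, 3, 10 and 12 held most NRS ones. In the 6 neutrophil-like clusters to which each library gave 50 or more cells Csf1 was lower in aCXCR2 cells in every one, and the interval lay below 0 in 5. In cluster 4, led by the interferon-induced genes Gbp2 and Cxcl10, it had 121 CPM in aCXCR2 and 459 CPM in NRS cells (log2 ratio -1.93). In cluster 5, led by Pglyrp1 and Orm1, it had 81.8 CPM in aCXCR2 and 205 CPM in NRS cells (log2 ratio -1.33). The smallest difference was in cluster 1, led by Siglecf, with 95.8 CPM in aCXCR2 and 112 CPM in NRS cells (log2 ratio -0.23, interval -0.69 to 0.21). Relative to the median gene of the same cluster, the 6 ratios ran between -1.30 and -0.071.

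**Figure D2:**
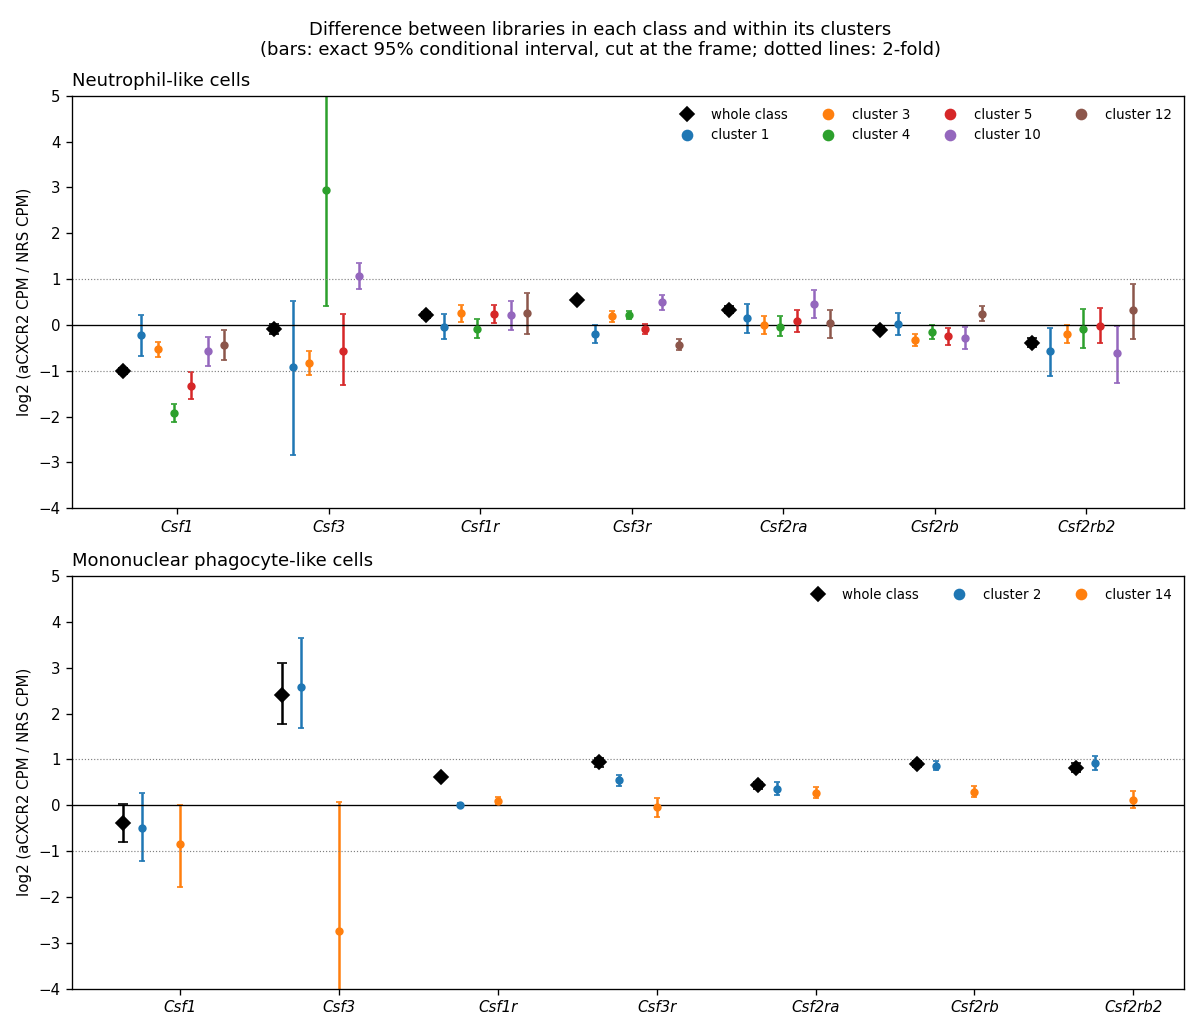
Log2 ratio of aCXCR2 over NRS CPM for 7 members in neutrophil-like cells (top) and mononuclear phagocyte-like cells (bottom). Diamonds are the whole class, circles are single clusters with 50 or more cells per library, and bars are exact 95% intervals. For Csf1 all 6 neutrophil-like clusters lie below 0, between -1.93 and -0.23.

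The order of the clusters differed between libraries. In aCXCR2 cells Csf1 was highest in cluster 12, led by Fgl2, Cxcr2 and Hdc, at 277 CPM and in cluster 10, led by Tnf, Dusp2 and Nr4a1, at 272 CPM, and lowest in clusters 1, 13 and 5, at 95.8, 92.2 and 81.8 CPM. In NRS cells, over clusters with 50 or more of them, it was highest in clusters 4, 10 and 12, at 459, 405 and 374 CPM, and lowest in cluster 1, at 112 CPM. Neighbours within each of these groups of clusters had overlapping intervals. Cluster 3, led by heat shock genes with Prok2 and Hcar2, had 207 CPM in aCXCR2 and 299 CPM in NRS cells. Of the annotated promoters of these genes, that of Csf1 is shown. Among members above the 10 CPM minimum, Csf1 had the largest ratio between libraries in neutrophil-like cells in unadjusted CPM. With TMM factors the largest ratio among them was that of Csf3r (log2 ratio 1.20). The stretch runs from 250 bases before to 30 bases after the RefSeq start (GRCm38.p6, chr3:107760440-107760719, minus strand), and capitals mark a match to the NF-kB consensus, which reads on the strand opposite to the one printed, 154 bases before the start. That consensus, searched on both strands, was in 4.08% of 27025 promoters.
Csf1 promoter: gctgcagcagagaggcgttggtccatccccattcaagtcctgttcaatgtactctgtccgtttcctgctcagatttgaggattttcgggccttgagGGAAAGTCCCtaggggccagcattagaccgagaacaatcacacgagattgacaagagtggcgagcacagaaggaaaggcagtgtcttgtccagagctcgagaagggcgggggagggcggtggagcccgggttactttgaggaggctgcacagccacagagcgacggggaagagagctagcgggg

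Csf3, the gene of granulocyte colony-stimulating factor, lies on chromosome 11 at 98701263 to 98703629 (plus strand). It was the most concentrated of the ligands that could be measured. The share of 50% of its UMIs was reached in 37 of 4826 aCXCR2 cells and 30 of 5655 NRS cells. For Csf1 the same share took 192 aCXCR2 and 258 NRS cells. A single NRS cell of the unnamed cluster 0 held 297 Csf3 UMIs, 14.6% of all those in its library, and a single aCXCR2 cell of the unnamed cluster 9 held 146, or 5.17%. After thinning, 4.45% of aCXCR2 and 4.24% of NRS neutrophil-like cells had a Csf3 UMI, as did 0.483% and 0.313% of photoreceptor-like ones. Without thinning, 13.4% and 10.8% of neutrophil-like cells had one.

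**Figure D3:**
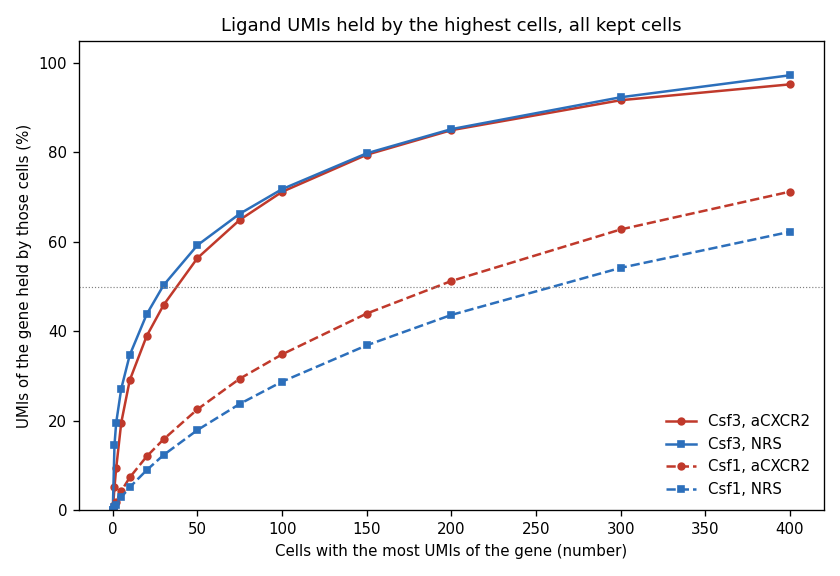
Percent of all UMIs of Csf3 (solid) and Csf1 (dashed) held by the cells with the most UMIs of that gene, in the aCXCR2 and NRS libraries. The 100 highest cells held 71.2% of Csf3 UMIs in aCXCR2 and 71.8% in NRS, against 34.9% and 28.8% of Csf1 UMIs.

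The class levels of Csf3 were close, 84.0 CPM in aCXCR2 and 90.0 CPM in NRS cells (log2 ratio -0.10, interval -0.21 to 0.010), and the TMM log2 ratio was 0.56. Different clusters made up these levels. In the aCXCR2 library the highest neutrophil-like clusters were cluster 10 at 404 CPM and cluster 11, led by stefin genes, G0s2 and Ccl4, at 261 CPM. Among clusters with 50 or more NRS cells they were cluster 10 at 192 CPM and cluster 3 at 149.8 CPM in that library, while the 26 NRS cells of cluster 11 had 951 CPM from 118 UMIs. Cluster 11 held 17.6% of aCXCR2 but 1.01% of NRS neutrophil-like cells. Without cluster 11 the class log2 ratio was -1.48. Within cluster 10 Csf3 was higher in aCXCR2 cells (log2 ratio 1.07, interval 0.79 to 1.35), from 53 aCXCR2 and 432 NRS cells. Within cluster 3 it was lower, at 84.1 CPM in aCXCR2 and 149.8 CPM in NRS cells (log2 ratio -0.83). The counting intervals take each UMI as separate. Single neutrophil-like cells held up to 119 (aCXCR2) and 101 (NRS) Csf3 UMIs, so a few cells can weigh on such cluster values. Their part in them was not tested.

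Cluster 10 was thus high in both Csf1 and Csf3 in both libraries, and both genes were among its 10 leading genes. Csf3 was lowest in cluster 13 in aCXCR2 cells, at 3.44 CPM, and in clusters 12 and 4 in NRS cells, at 1.48 and 1.44 CPM, over clusters with 50 or more cells of the library. Clusters 12 and 4, among the highest for Csf1 in NRS cells, were thus the lowest for Csf3 there. The genes whose pattern over 18 clusters was most like that of Csf3 were Il1a (Pearson r 0.94), Ccl4 (0.89) and Ccl3 (0.89), encoding an interleukin-1 cytokine and 2 chemokines. For Csf1 they were Amn1 (0.93), Mirt1 (0.92) and Dusp5 (0.92). The 18 points share libraries and depth, and with a larger pseudocount Dusp5 remained among the 3 for Csf1, and Il1a and Ccl4 among the 3 for Csf3.

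**Figure D4:**
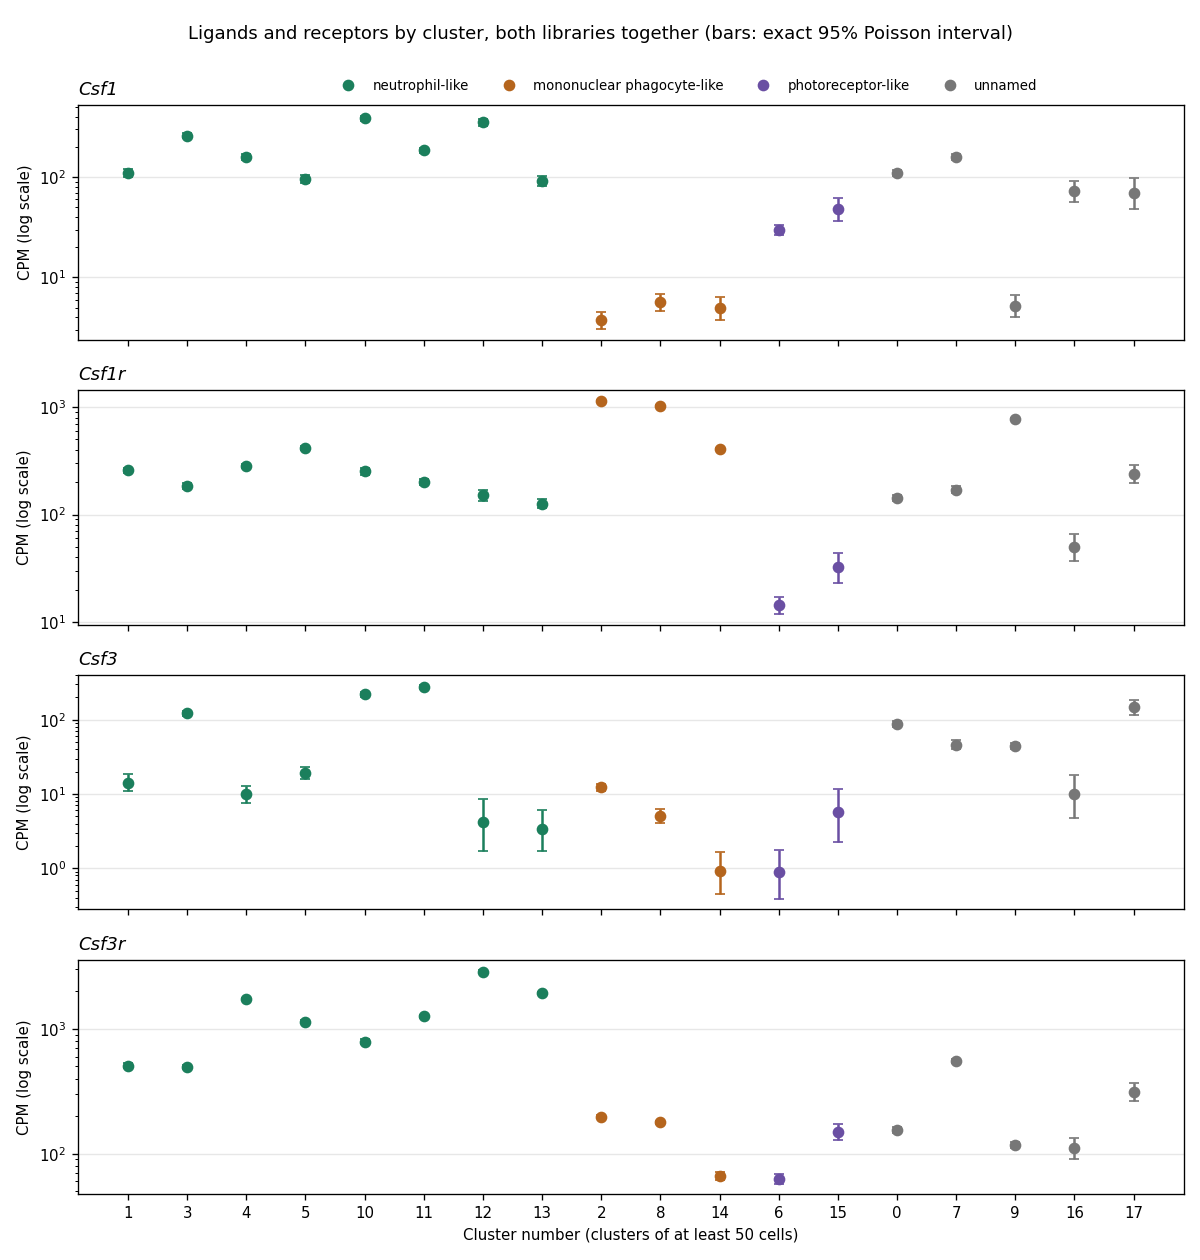
Level of Csf1, Csf1r, Csf3 and Csf3r in CPM on a log axis for the 18 clusters of at least 50 cells, both libraries together, coloured by cell class, with exact 95% Poisson intervals. These pooled levels depend on how many cells each library gave: Csf3 was 276 CPM in cluster 11 and 220.5 CPM in cluster 10, while in aCXCR2 cells alone it was 261 CPM in cluster 11 and 404 CPM in cluster 10. Csf3r was highest in cluster 12, at 2871 CPM.

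Csf2, the gene of granulocyte-macrophage colony-stimulating factor, lies on chromosome 11 at 54247271 to 54249667 (minus strand), where Gm12223 is annotated on the opposite strand. The labels do not say whether counting used strand, so reads of overlapping genes on opposite strands cannot be told apart. Few Csf2 UMIs were found at this depth. The aCXCR2 library had 8 UMIs in 4 cells, and the NRS library had 51 UMIs in 32 cells. All 8 aCXCR2 UMIs and 28 of the 51 NRS UMIs were in neutrophil-like cells. Cluster 10 held 6 of the 8 and 16 of the 51, and the unnamed cluster 0 held another 19 NRS UMIs. In neutrophil-like cells the level was 0.355 CPM in aCXCR2 and 2.37 CPM in NRS, under the 10 CPM minimum used for calls. Where the libraries were clustered separately, the direction of this difference turned (log2 ratio 0.62). T cells, a known source of CSF2, were few. The unnamed cluster 18 held the T cell genes Trdc and Cd3g among its leading genes but scored highest for mononuclear phagocyte markers. It had 0 Csf2 UMIs in 41 cells, which allows up to 3.86 CPM, above the NRS neutrophil-like level. Nothing about T cells is read from it.

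The ligand transcripts differ in a known class of instability signal, the AU-rich element of the 3' untranslated region. The motif TATTTAT, counted on the transcript strand with overlaps allowed, was found 9 times in the 317-base 3' untranslated region of Csf2, 2 times in that of Csf3 and 1 time in that of Csf1, and 0 times in those of the 5 receptor genes. Of 20574 genes, 27.8% had at least 1 copy, 10.4% at least 2, and 0.122% at least 9. By these shares only the count of Csf2 was rare, and those of Csf1 and Csf3 were not. The densest 30 bases of each ligand are shown because each held a copy, with motif copies in capitals (GENCODE M21, GRCm38). They lie at chr3:107742921-107742950 on the minus strand, chr11:54247328-54247357 on the minus strand and chr11:98702985-98703014 on the plus strand, in the order given.
Csf1: ggatgccccccacatactgccacTATTTAT
Csf2: ttttaaaTATTTATTTATTTATTTATTTAT
Csf3: atagttTATTTATctctatttaaTATTTAT

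Csf3r lies on chromosome 4 at 126024550 to 126044440 (plus strand), with no overlapping gene. Among the receptor chains it had the widest range over neutrophil-like clusters. In the aCXCR2 library it ranged from 451 CPM in cluster 1 to 2243 CPM in cluster 12, and in the NRS library, over clusters with 50 or more cells, from 465 CPM in cluster 3 to 3020 CPM in cluster 12. Cluster 13, led by Ngp, Retnlg and Ly6g, had 1925 CPM in aCXCR2 cells, and 3768 CPM in only 4 NRS cells. The genes most like it were Ripor2 (Pearson r 0.98), Slfn1 (0.98) and Il18rap (0.98) over the 18 clusters.

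Within neutrophil-like cells, the share with a Csf3r UMI was lower among cells with a Csf3 UMI in both libraries, and the counting intervals did not overlap. In aCXCR2 neutrophil-like cells thinned to 1000 UMIs, Csf3r was seen in 53.6% of the 112 cells with Csf3 (interval 43.9 to 63.0%) and in 67.5% of the 2405 without it (65.6 to 69.4%). In NRS cells it was seen in 31.4% of 102 cells with Csf3 (22.5 to 41.3%) and in 48.9% of 2306 without it (46.9 to 51.0%). For Csf1 the libraries differed. Csf3r was seen in 67.0% of aCXCR2 cells with Csf1 and 66.9% of those without it, but in 61.4% of NRS cells with Csf1 and 45.3% of those without it. The clusters of these cells differ in both genes, and their part in these shares was not tested.

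Between libraries, Csf3r in neutrophil-like cells was 1368 CPM in aCXCR2 and 943 CPM in NRS cells (log2 ratio 0.54, interval 0.51 to 0.57). With TMM factors the log2 ratio was 1.20, which would make it the 1 member at least 2-fold higher in aCXCR2. Within clusters it was higher in aCXCR2 cells in clusters 10, 4 and 3 (log2 ratios 0.49, 0.21 and 0.19) and lower in cluster 12 (-0.43), and these 4 directions were the same relative to the median gene of each cluster. The promoter of Csf3r (GRCm38.p6, chr4:126024409-126024688, plus strand) is shown as that of the receptor gene with the widest range among them. Capitals mark the core GAGGAA of sites for PU.1, a transcription factor of myeloid cells, found 86 bases before the start. Searched on both strands, this core was in 25.9% of the 27025 promoters.
Csf3r promoter: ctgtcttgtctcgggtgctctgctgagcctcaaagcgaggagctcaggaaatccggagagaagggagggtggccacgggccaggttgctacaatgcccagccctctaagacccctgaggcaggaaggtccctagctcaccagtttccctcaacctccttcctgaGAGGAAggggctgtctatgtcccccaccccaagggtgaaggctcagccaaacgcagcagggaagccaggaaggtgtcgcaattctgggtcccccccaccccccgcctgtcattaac

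Csf1r lies on chromosome 18 at 61100598 to 61132149, where Hmgxb3 overlaps it on the opposite strand and Mir6983 on the same strand. Over both libraries together it was highest in cluster 2, led by Ccl8, Mrc1 and C1q genes, at 1140.1 CPM, followed by cluster 8, led by Ccr2 and Vcan, at 1027 CPM. Cluster 14, led by Spp1 and Gpnmb, had 407 CPM, which overlapped the 419 CPM of neutrophil-like cluster 5. The other neutrophil-like clusters had between 126 and 285 CPM. The 24 mononuclear phagocyte markers, which do not include Csf1r, summed to 4393 CPM in neutrophil-like and 57441 CPM in phagocyte cells of the aCXCR2 library, and to 6970.1 and 93449.8 CPM in those of the NRS library. In the mononuclear phagocyte-like class Csf1r was 1025 CPM in aCXCR2 and 673 CPM in NRS cells (log2 ratio 0.61, interval 0.57 to 0.64). Inside cluster 2 it was 1141 CPM in aCXCR2 and 1133 CPM in NRS cells, and inside cluster 14 it was 423 and 397 CPM. Inside cluster 8 it was 1034 CPM in aCXCR2 cells and 777 CPM in NRS cells, of which there were 28. Cluster 14 made up 8.25% of aCXCR2 and 53.4% of NRS phagocytes, and without it the class log2 ratio was 0.0022. In neutrophil-like cells the class values were 264 CPM in aCXCR2 and 228 CPM in NRS cells (log2 ratio 0.22, or 0.88 with TMM factors), and without cluster 5 the log2 ratio was -0.018. The genes most like Csf1r were Dram1 (Pearson r 0.97), Fermt3 (0.97) and Cybb (0.97).

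The CSF2 receptor chains were present in both myeloid classes. Csf2ra lies on chromosome 19 at 61223957 to 61228429 (minus strand). Csf2ra had 277 CPM in aCXCR2 and 219.9 CPM in NRS neutrophil-like cells, and 203 CPM and 151 CPM in mononuclear phagocyte-like cells. It was thus higher in aCXCR2 cells of both classes, by log2 ratios of 0.33 (0.99 with TMM factors) and 0.43. Within 5 of 6 neutrophil-like clusters the interval of its log2 ratio held 0. Csf2rb had 475 CPM in aCXCR2 and 510.2 CPM in NRS neutrophil-like cells, and 348 CPM and 187 CPM in phagocytes. The log2 ratio of Csf2rb between libraries in neutrophil-like cells was -0.10, and 0.56 with TMM factors. Csf2rb2 had 91.8 CPM in aCXCR2 and 120.3 CPM in NRS neutrophil-like cells, and 155 CPM and 87.8 CPM in phagocytes. Its neutrophil-like log2 ratio of -0.39 also turned with TMM factors, to 0.27. Csf2rb was thus higher in neutrophil-like cells in both libraries, while Csf2rb2 was lower there in the aCXCR2 library (log2 ratio of neutrophil-like over mononuclear phagocyte-like cells -0.76) and higher in the NRS library (0.45).

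The beta chain genes are neighbours on chromosome 15, Csf2rb2 at 78282507 to 78305721 on the minus strand and Csf2rb at 78325752 to 78353847 on the plus strand, with 20030 bases between them. Their coding sequences were 95.2% identical over 2631 aligned positions. Their 3' ends, which the kit counts, were 86.2% identical over the last 1000 bases. None of the 903 windows of 98 bases, the read length per the labels' protocols, in that part of one transcript occurred in the other, so no such stretch was shared there. For each Csf2rb UMI there were 0.193 (aCXCR2) and 0.236 (NRS) Csf2rb2 UMIs in neutrophil-like cells, against 0.446 and 0.469 in mononuclear phagocyte-like cells, and the counting intervals of the classes did not overlap in either library. Over neutrophil-like clusters with 50 or more cells of the library, Csf2rb was highest in cluster 12 (1222 CPM in aCXCR2 and 1035 CPM in NRS cells), where Csf3r was highest too. Csf2rb2 was highest in cluster 3 (166 and 189.8 CPM) and had 99.5 and 80.1 CPM in cluster 12, beside 179 and 94.9 CPM in phagocyte cluster 2. Csf2ra was highest in cluster 12 (355 and 347 CPM), though its interval overlapped that of the next cluster in each library. Over the 18 clusters the genes most like Csf2ra were Mcemp1, Lcp1 and Ptpn1 (Pearson r 0.94 for each). Those most like Csf2rb were Tlr4 (0.98), Syk (0.98) and Rhog (0.97), and those most like Csf2rb2 were Adam17 (0.96), Efhd2 (0.95) and Cyba (0.93).

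In phagocytes no member that passed the 10 CPM minimum was at least 2-fold apart between libraries, where 4.65% of 7575 genes were higher and 3.64% lower in aCXCR2. Csf3r, at 182 CPM in aCXCR2 and 95.3 CPM in NRS cells, came closest (log2 ratio 0.93, interval 0.84 to 1.02), followed by Csf2rb (0.90) and Csf2rb2 (0.82). Inside cluster 2 these were 0.54, 0.86 and 0.92, and inside cluster 14 they were -0.044, 0.30 and 0.12. Csf3 was 9.33 CPM in aCXCR2 and 1.76 CPM in NRS phagocytes, from 425 and 21 UMIs, and did not reach the minimum. No ratio is read from it, since the NRS level was not above background. Inside cluster 2 it was 14.1 CPM in aCXCR2 and 2.37 CPM in NRS cells, and inside cluster 14 it was 0.206 and 1.39 CPM, from 1 and 10 UMIs. The summed neutrophil markers were 3899 CPM in aCXCR2 and 1333 CPM in NRS phagocytes, and their part in these differences was not tested.

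The pathway around the receptors runs from Janus kinases and STAT factors to feedback inhibitors and survival genes. Its genes were taken from 6 lists with 57 genes, of which 47 reached 10 CPM in at least 1 library in each class. The beta chain ligands Il3 and Il5 had 0 UMIs in both classes, as did Il34, the second ligand of CSF1R, and Il17a, an inducer of Csf3. Il3ra, the IL-3 partner of the beta chains, had 4.26 CPM in aCXCR2 and 2.54 CPM in NRS neutrophil-like cells, against 46.7 CPM and 44.6 CPM in phagocytes.

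In neutrophil-like cells 3 of the 47 genes were at least 2-fold higher in aCXCR2 and 4 at least 2-fold lower, beside 1.89% and 19.0% of all genes. The higher ones included Socs1 and Cish, feedback inhibitors of cytokine receptors. Socs1 had 72.0 CPM in aCXCR2 and 23.4 CPM in NRS cells (log2 ratio 1.62). Cish had 19.4 and 9.47 CPM, under its 26.2 and 17.7 CPM in photoreceptor-like cells. Photoreceptor-like cells had a higher Cish level than either myeloid class, so they give no background for it. The source of the neutrophil-like Cish UMIs was not tested, and no size of difference is read from them. The lower ones were the survival gene Bcl2a1b (-1.10), the granulocyte factor Cebpe (-1.37), the phagocyte receptor Trem2 (-1.72) and the cytokine Tnf (-1.08). Trem2 had 11.98 CPM in aCXCR2 and 39.57 CPM in NRS neutrophil-like cells, against 418 CPM and 1046 CPM in phagocytes. Whether the neutrophil-like Trem2 UMIs came from phagocyte RNA was not tested, and no size of difference is read from them. The list medians were -0.15 for receptor signalling, 0.24 for feedback and survival, -0.43 for the CSF1 axis, 0.16 for inducers of the ligands and -0.65 for AU-rich decay, where the median of all genes was -0.56. With TMM factors the counts were 11 higher and 1 lower. The clusters making up the class differed between libraries, and their part in these ratios was not tested.

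In mononuclear phagocyte-like cells 12 of the 47 were at least 2-fold higher in aCXCR2 and 1 lower, beside 4.65% and 3.64% of all genes, and TMM factors moved the ratios of this class by 0.020. The libraries differed in the clusters of this class. Cluster 14 made up 8.25% of aCXCR2 and 53.4% of NRS phagocytes, and cluster 8 made up 41.9% and 6.39%. The list genes were not compared inside clusters, so the part of this make-up in their ratios was not tested. Of the 9 measured feedback and survival genes 5 were higher (Socs1, Socs3, Pim1, Cebpb and Cebpd). Socs3, which limits signalling by CSF3R, had 257 CPM in aCXCR2 and 77.4 CPM in NRS cells. Of the 9 measured inducers of the ligands 4 were higher, led by Il1b, which had 1739 CPM in aCXCR2 and 157 CPM in NRS cells. Zfp36, whose protein destabilises AU-rich transcripts, had 204 CPM in aCXCR2 and 84.0 CPM in NRS cells. The kinase gene Jak2 was also higher, at 66.2 CPM in aCXCR2 and 29.3 CPM in NRS cells. The NRS levels of Il1b, Socs1, Socs3, Cebpd and Jak2 in phagocytes were not above those of NRS photoreceptor-like cells (201, 14.8, 178, 515 and 37.1 CPM). Nor was that of Nfkbiz, 1 of the 4 higher inducers, at 22.5 CPM against 25.5 CPM. For Cebpd the photoreceptor-like level was also above the 301 CPM of NRS neutrophil-like cells, so it is no background from them. Whether the levels in that class are free RNA or its own transcripts was not tested. The sizes of these differences therefore stay undecided. Trem2 was the lower one, at 418 CPM in aCXCR2 and 1046 CPM in NRS cells. The list medians were 0.49 for receptor signalling, 1.0 for feedback and survival, -0.021 for the CSF1 axis, 0.88 for inducers and 0.60 for AU-rich decay, where the median of all genes was 0.080.

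**Figure D5:**
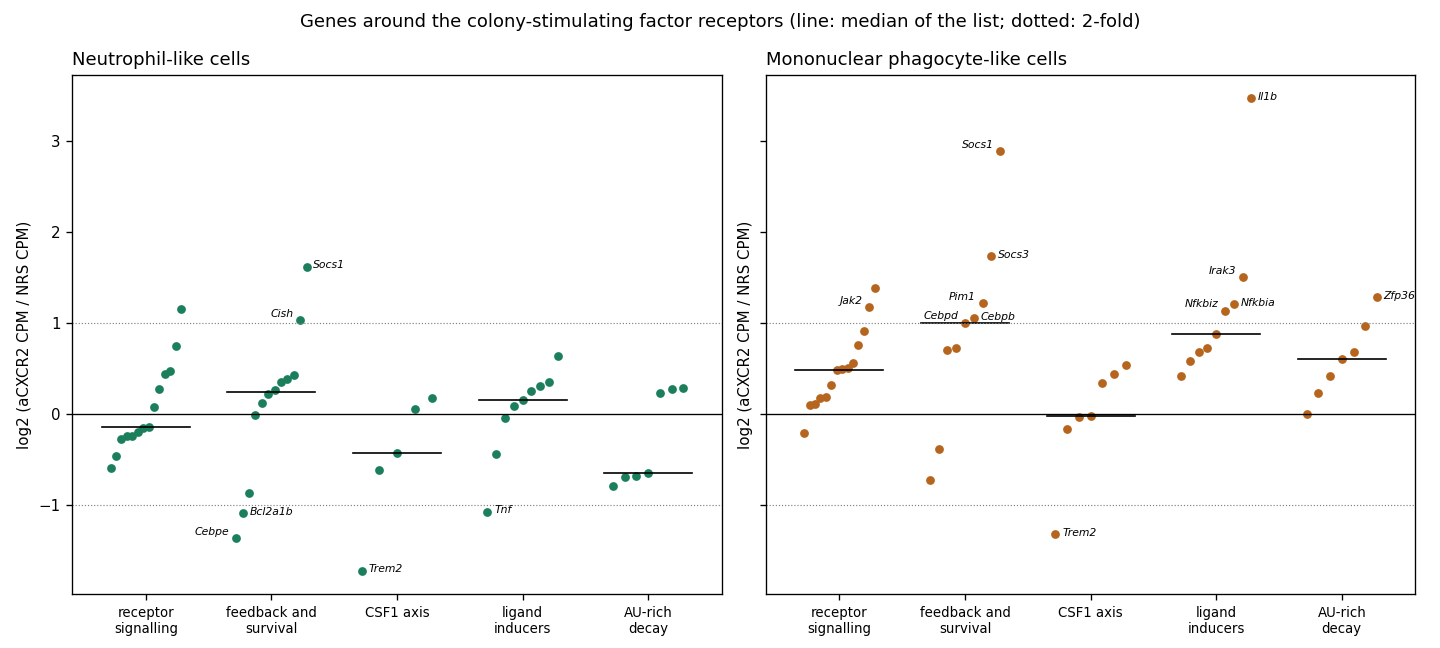
Log2 ratio of aCXCR2 over NRS CPM for the measured genes of 5 lists around the colony-stimulating factor receptors, in neutrophil-like cells (left) and mononuclear phagocyte-like cells (right). Points are genes, lines are list medians, and most genes at least 2-fold apart are named. The median of the feedback and survival list was 0.24 in neutrophil-like cells and 1.0 in phagocytes.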

How the data were processed

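Droplet 3' single-cell RNA libraries, 1 aCXCR2 and 1 NRS, were analysed from their deposited matrices, which per the file headers hold unnormalized counts (whole UMIs for each gene in each barcode). Cell Ranger and Seurat appear, with no version, in the submitters' processing notes, and version 3.0.0 of the software stands in the matrix headers. The notes list GRCh38, a human build, whereas the deposited feature tables hold mouse gene IDs, and which mouse build was used is not stated. Gene positions are those of GENCODE M21 (GRCm38), which held 30934 of the 31053 IDs, and promoters those of RefSeq GRCm38.p6, which had an entry for 5 of the 8 members (not for Csf3, Csf1r and Csf2rb).

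Kept barcodes had 500 or more UMIs, 200 or more genes and no more than 10% mitochondrial UMIs (4826 aCXCR2, 5655 NRS). This removed 13.1% of aCXCR2 and 22.7% of NRS barcodes. Scrublet called 4 aCXCR2 and 0 NRS doublets, so the caller has not worked and doublets remain; an alternative removed the 214 and 331 highest scores. Both libraries were clustered together (scanpy 1.11.5, leidenalg 0.10.2, Python 3.11.15; 2000 variable genes without the members, 30 components, 15 neighbours, resolution 1). Clusters were named from marker lists by a rule set after the data were seen: the share of cells with each marker at equal depth, at least 3 markers seen, and a best class scoring at least 3-fold above the next. Barcodes with at least 10% haemoglobin transcripts (7 aCXCR2, 12 NRS) were set apart.

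Summed counts were divided by total UMIs (CPM). Intervals are exact Poisson for CPM, exact Clopper-Pearson for shares and exact conditional for ratios, at 95%, and cover counting error only. A gene was called when it had at least 10 CPM in 1 library and differed at least 2-fold. TMM factors came from edgeR 4.0.16 (R 4.3.3). On counts simulated from the neutrophil-like sums (7160 genes), 0 of 68 genes changed 1.5-fold, 63 of 63 changed 3-fold and 69 of 69 changed 6-fold were called. These counts held Poisson error only, with no shift or difference in cell make-up between libraries. They check the 2-fold cut and cannot show how reliable the calls are. The members and gene lists were chosen with earlier results of these data known. Genes named beside the members are those of the lists with the largest ratios, and the 3 genes with the highest Pearson r with each member over the clusters of at least 50 cells, on log2(CPM + 10). The proteins of the beta chains were not used here, and their transcripts were aligned instead. 1 gene of the lists is counted but not reported here by name. Alternatives changed the filter, doublets, clustering, scaling, weighting, the CPM minimum and the clusters included.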

Additional observations from a re-analysis of the deposited data

How the results depend on the processing

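Of 26 alternatives, 15 were listed with the design and 11, which leave out 1 cluster each, were added after the data were seen. The counts of members between the cell classes, 3 higher and 1 lower in neutrophil-like cells, held in each of the 12 alternatives that recomputed them. Those that leave out 1 cluster each did not recompute them. Without mononuclear phagocyte-like cluster 2 the NRS log2 ratio of Csf1r was -0.89, under the 2-fold cut. The count of 1 member (Csf1) at least 2-fold lower in aCXCR2 neutrophil-like cells was 0 with the highest doublet scores removed, with CPM averaged over cells, with unnamed clusters added, with TMM factors and with median of ratios size factors, and the log2 ratio of Csf1 stayed between -1.35 and -0.29 in all alternatives. The count of members at least 2-fold higher there, 0, became 1 with TMM factors and 2 with median of ratios factors. In mononuclear phagocyte-like cells the counts of 0 became 1 lower with CPM averaged over cells, and 1 higher without the weakest cluster. Pathway genes at least 2-fold higher in neutrophil-like cells numbered 1 in place of 3 with the stricter cell filter, at resolution 0.5, with libraries clustered separately and without the weakest cluster, 11 with TMM factors and 12 with median of ratios factors. Those at least 2-fold lower numbered 2 in place of 4 with unnamed clusters added, and 1 with TMM factors and 1 with median of ratios factors. The direction turned for Csf2 with libraries clustered separately (log2 ratio 0.62). It turned for Csf2rb in neutrophil-like cells with unnamed clusters added (0.11), without cluster 12 (0.069), with TMM factors (0.56) and with median of ratios factors (0.61). It turned for Csf2rb2 with TMM factors (0.27) and median of ratios factors (0.32), and for Csf1r without cluster 5 (-0.018). Scaling alternatives move all genes of a class by the same amount; for the other changes the cause was not tested. No paired analysis was possible because each group has 1 library and no test was made. With a median of 4759 UMIs in NRS cells, Csf2 lies near the limit of these counts. The phagocyte levels of Csf1, and that of Csf3 in the NRS library, were not above those of photoreceptor-like cells. The Csf3 level of aCXCR2 phagocytes, 9.33 CPM, was under the 10 CPM minimum.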

Other observations

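Relative to its neutrophil-like level, Csf2ra was the highest of the receptor chains in photoreceptor-like cells. After thinning it was seen in 7.25% of aCXCR2 and 9.56% of NRS photoreceptor-like cells, while Csf2rb was seen in 1.45% and 1.88%. In CPM, Csf2ra stood at 28% (aCXCR2) and 28.5% (NRS) of its neutrophil-like level, against 8.45% and 7.64% for Csf2rb and 8.48% and 5.74% for the 12 neutrophil markers summed. Csf2rb2 stood at 16.9% and 9.38%, Csf1r at 12.4% and 6.01%, and Csf3r at 9.90% and 6.73%. The level of Csf3r itself, 135 and 63.5 CPM, was not under the 77.6 and 62.6 CPM of Csf2ra. For each Csf2rb UMI there were 1.93 and 1.61 Csf2ra UMIs in photoreceptor-like cells, against 0.584 and 0.431 in neutrophil-like cells. The ratio was thus higher in the photoreceptor-like class in both libraries, and the counting intervals did not overlap. Csf1 was at 22.6% and 11.5% of its neutrophil-like level in the same class.

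The unnamed clusters carried members too, and those below were left unnamed because a second marker class scored too high. Cluster 9, led by Mmp12, Serpinb2 and Inhba, had 841 CPM of Csf1r in aCXCR2 and 624 CPM in NRS cells, with 5.33 and 4.90 CPM of Csf1, as in the phagocytes, but 49.4 and 31.1 CPM of Csf3. Cluster 0, led by Itpr2, Ctsk and Gdf15, held 93 aCXCR2 and 1077 NRS cells and had 25.5 CPM of Csf3 in aCXCR2 and 95.9 CPM in NRS cells, where 1 cell held 297 of the 572 UMIs. Cluster 17, led by crystallin genes of the lens, had 159 CPM of Csf3 in 75 NRS cells, from 66 UMIs in 12% of them. Its neutrophil score was 20.6, beside 25.9 for lens markers, and it had 312 CPM of Csf3r over both libraries together. Whether its Csf3 UMIs came from lens cells or from neutrophil RNA was not tested.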
